A study of Mus musculus with 8 samples.

Results

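Dnase1, Fcamr, Nepn, Synpr and Srd5a2 are 5 genes that were expressed in the kidneys of Control mice and had little RNA left in the kidneys of conditional knockout (cKO) mice, in which the phosphate exporter gene Xpr1 is deleted from the renal tubule. They were chosen by the measured difference between cKO and Control libraries, out of 46517 genes listed and 15382 with enough reads to be tested, and all 5 passed the filter on low counts. Their levels and folds between the groups are therefore given as a description, without a test. Tests between the groups were run gene by gene on other genes, such as relatives and chromosomal neighbours. Shares of called genes in a list were not tested against those of all genes. The gene lists were drawn up with earlier results of these data known.

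The data are mRNA sequencing counts of whole kidney from 8 mice, 4 per group. Control mice, with libraries C10, C11, C13 and C14, were Xpr1lox/lox, with exon 2 of Xpr1 flanked by lox sites on both alleles and no Cre. Those of the cKO group, with libraries KO16, KO18, KO19 and KO20, carried Xpr1lox/lox-Pax8-rtTA/LC-1: the Pax8 promoter drives a doxycycline-dependent activator in renal tubule cells, and LC-1 carries the Cre gene that this activator switches on. All mice, Control littermates included, drank doxycycline (2 mg/ml) for 2 weeks from an age of 8 weeks. The effect of carrying the 2 transgenes and that of losing Xpr1 cannot be told apart, because no Control mouse carried them. The deletion is directed to cells in which the Pax8 promoter is active, not to other cells of the kidney. The labels do not state the sex of the mice. In all 8 libraries Xist reached at most 0.217 CPM (reads per 1000000 reads assigned to genes, TMM-scaled), and Ddx3y held 21.7 CPM or more.

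XPR1 carries phosphate out of cells and also serves as a receptor for some mouse retroviruses. In the proximal tubule, the segment that takes back most filtered phosphate, glucose and amino acids, phosphate enters from the urine side and has to leave towards the blood. The 5 genes encode proteins with unrelated tasks. DNASE1 is a secreted enzyme that cuts DNA, made in large amounts by kidney and found in urine. FCAMR is a cell surface receptor that binds the constant part of IgA and IgM. Nephrocan, the product of Nepn, is a small leucine-rich repeat protein of the extracellular matrix. Synaptoporin, encoded by Synpr, is a membrane protein of small vesicles best known from neurons. SRD5A2 is a 5-alpha-reductase that turns testosterone into dihydrotestosterone.

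Because the 5 genes were low together in cKO kidneys, the sequence before the start of each is shown, as it stands in RefSeq's promoter windows for GRCm38.p6. Each run is written 5′ to 3′ on the gene's strand, trimmed to the bases before the first exon of the annotated transcript there, and capitals mark the letters that match a searched motif on either strand (in Dnase1, the reverse complements of GTTAAT and TATAAA).
Dnase1: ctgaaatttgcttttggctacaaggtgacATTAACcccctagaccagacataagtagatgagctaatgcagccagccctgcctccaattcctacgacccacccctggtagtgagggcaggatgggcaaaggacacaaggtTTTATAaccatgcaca
Fcamr: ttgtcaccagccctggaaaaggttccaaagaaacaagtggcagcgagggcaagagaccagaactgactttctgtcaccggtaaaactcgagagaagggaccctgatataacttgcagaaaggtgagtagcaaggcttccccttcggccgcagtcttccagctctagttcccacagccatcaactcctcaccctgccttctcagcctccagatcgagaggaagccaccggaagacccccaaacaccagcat
Nepn: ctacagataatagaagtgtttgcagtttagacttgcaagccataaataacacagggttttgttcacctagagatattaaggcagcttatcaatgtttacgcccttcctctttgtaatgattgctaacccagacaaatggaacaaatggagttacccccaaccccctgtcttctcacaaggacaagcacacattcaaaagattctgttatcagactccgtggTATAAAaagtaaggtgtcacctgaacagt
Synpr: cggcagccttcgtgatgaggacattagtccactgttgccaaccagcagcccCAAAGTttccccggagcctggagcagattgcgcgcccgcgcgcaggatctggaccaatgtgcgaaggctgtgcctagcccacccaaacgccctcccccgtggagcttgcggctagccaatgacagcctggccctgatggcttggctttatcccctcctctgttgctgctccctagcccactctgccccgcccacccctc
Srd5a2: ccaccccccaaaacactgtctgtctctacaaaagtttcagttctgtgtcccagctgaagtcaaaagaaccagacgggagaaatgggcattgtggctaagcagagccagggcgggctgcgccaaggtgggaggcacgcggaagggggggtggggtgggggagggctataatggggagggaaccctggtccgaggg
These stretches lie at chr16:4036786-4036941 on the plus strand for Dnase1, chr1:130800652-130800901 on the plus strand for Fcamr, chr10:52391358-52391607 on the plus strand for Nepn, chr14:13284530-13284779 on the plus strand for Synpr and chr17:74047917-74048110 on the minus strand for Srd5a2. The stretch of Nepn lies between the first exons of its 2 annotated transcripts. All 5 genes had an entry, with 7 windows in all, and Dnase1 and Synpr had a second one. Whole windows of 300 bases, from 250 before to 50 after the RefSeq start, were searched on both strands for 6 short motifs.

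No motif was shared by all 5 genes. The letters GTTAAT, a part of the site of the tubule factor HNF1, were found in Dnase1, on the opposite strand, and in 7.1% of all 32851 windows. CAAAGT, the start of the HNF4 site, was found in Synpr and in 14.4% of all windows, and the longer CAAAGTCCA in none of the 5 genes and in 0.475% of windows. TATAAA lay at position -29 from the start of Nepn and, on the opposite strand, at -110 in the first window of Dnase1, and occurred in 13.6% of windows. AGGTCA, bound by many nuclear receptors, was found in the second window of Dnase1 (16.3% of all windows). AGAACA, a part of the steroid receptor site, was found on the opposite strand in Dnase1 (19% of all windows). Its windows overlap, and the match in each is the same site, which lies past the end of the stretch shown. The windows of Fcamr and Srd5a2 held none of the 6. The base composition of the first windows ran from 42.3% G and C for Nepn, with 14.9% of all windows below it, to 63.7% for Synpr, with 79.1% below it, around a median of 52.7%. A match of letters shows no binding, and the absence of one says only that these letters are not in the window.

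The libraries held 20366113 (KO16) to 26155030 (C13) reads assigned to genes. Xpr1 itself held 80.2 to 126 CPM in Control and 5.74 to 26.5 CPM in cKO libraries, so every library followed its label (log2 fold change -2.65, SE 0.44, adjusted p = 0.00491, edgeR's quasi-likelihood test with Benjamini-Hochberg adjustment). At that threshold of 0.05, 14.1% of tested genes were called, 6.61% lower and 7.5% higher in cKO kidneys. KO16 and KO20 leaned most to short transcripts and C11 most to long ones. The median of the shortest sixth of transcripts, less that of the longest sixth, lay 2.04 (KO16) and 0.97 (KO20) above the Control mean on the log2 scale and was -0.84 in C11, against -0.69 to 0.61 in the other libraries. Without these 3 libraries the log2 fold changes of the 5 genes were -4.50 for Dnase1, -5.16 for Fcamr, -4.75 for Nepn, -7.70 for Synpr and -3.99 for Srd5a2. Umod, Slc12a1 and the other thick limb markers summed to 3884 to 5711 CPM in Control and 3453 to 5680 CPM in cKO libraries, so the tissue carried the markers of kidney.

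Dnase1 (ENSMUSG00000005980, GRCm38 chr16:4036942-4040024, plus strand, 11 annotated transcripts) was the most abundant of the 5. The Control libraries held 1385 (C10), 1513 (C11), 1537 (C13) and 1269 CPM (C14), and the cKO libraries 103 (KO16), 78.6 (KO18), 47.8 (KO19) and 57.5 CPM (KO20). The lowest Control library stood 12.3-fold above the highest cKO library, and Control libraries varied little among themselves, by at most 1.21-fold. The group means were 1426 ± 124 and 71.8 ± 24.5 CPM (SD, n = 4), a 19.9-fold difference with 5.03% of the Control level left, and the fitted log2 fold change was -4.31 (SE 0.31). Scaled to the length of its main transcript, Dnase1 ranked 42nd of 13902 genes in Control kidneys and 1470th in cKO kidneys. Its cKO level, 48.5 ± 16.6 RPKM (CPM per kilobase of transcript), was above the Control level of each of the other 4 genes, so for Dnase1 the loss was large and the RNA was far from absent.

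Dnase1 shares exonic sequence with 2 genes on the opposite strand. Gm15879, an antisense transcript with 504 shared bases, held 13.7 ± 3.47 CPM in Control and 2.81 ± 0.401 CPM in cKO kidneys (log2 fold change -2.28, SE 0.26, adjusted p = 0.000924 by edgeR). Trap1, a mitochondrial chaperone with 54 shared bases, held 309 ± 15 and 175 ± 26.8 CPM. The sources used here do not give the strand setting of the counting. Whether reads of Dnase1 and of these partners were told apart in the shared stretches is therefore not known. Over the Control libraries Gm15879 held 1231 reads and Dnase1 130439.

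Fcamr (ENSMUSG00000026415, chr1:130800902-130814740, plus strand) was a gene of middling level. The Control libraries held 16.6 (C10), 34.9 (C11), 30.2 (C13) and 22.2 CPM (C14), and the cKO libraries 0.213 (KO16), 0.928 (KO18), 0.394 (KO19) and 0.211 CPM (KO20). C11 was highest and C10 lowest among Control libraries, a 2.10-fold spread, and the groups stood 17.9-fold apart at their nearest values. The means of 26 ± 8.15 and 0.436 ± 0.339 CPM gave a 59.6-fold difference with 1.68% left, from 2411 reads over the Control libraries and 51 over the cKO libraries (log2 fold change -5.83, SE 0.53). The log2 fold change was -6.51 without KO18, the cKO library with the most Fcamr. By sequence, the transcripts of Fcamr matched no other gene over 100 bases or more at 90% identity, and the same held for Nepn.

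Nepn (ENSMUSG00000038624, chr10:52388972-52404625, plus strand) had nearly the same Control level as Fcamr. The Control libraries held 33.1 (C10), 30.3 (C11), 24.4 (C13) and 29 CPM (C14), and the cKO libraries 0.531 (KO16), 1.76 (KO18), 0.454 (KO19) and 0.506 CPM (KO20). KO18 stood apart from the other 3 cKO libraries, which lay within 0.454 to 0.531 CPM, and still lay 13.9-fold under the lowest Control library. The means were 29.2 ± 3.61 and 0.813 ± 0.632 CPM, a 35.9-fold difference with 2.78% left (2657 and 92 reads). The log2 fold change was -5.14 (SE 0.48), and -5.87 without KO18, a difference of over 1.5-fold.

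Srd5a2 (ENSMUSG00000038541, chr17:74016955-74047916, minus strand, a single annotated transcript) was lower still in Control kidneys. The Control libraries held 10.9 (C10), 12.9 (C11), 10.1 (C13) and 8.07 CPM (C14), and the cKO libraries 0.638 (KO16), 0.576 (KO18), 0.667 (KO19) and 0.337 CPM (KO20). Both groups were tight, and their nearest values were 12.1-fold apart. The means of 10.5 ± 1.99 and 0.554 ± 0.15 CPM gave an 18.9-fold difference with 5.28% left (962 and 60 reads, log2 fold change -4.23, SE 0.30). The annotated transcript CT025731.1 shares 144 exonic bases with Srd5a2 on the same strand, and the counts of Srd5a2 in that stretch are uncertain.

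Synpr (ENSMUSG00000056296, chr14:13284780-13616340, plus strand) was the least expressed and the most variable of the 5. The Control libraries held 4.82 (C10), 1.36 (C11), 11.3 (C13) and 5.67 CPM (C14), from 100, 34, 261 and 128 reads. The cKO libraries held 0.0531 (KO16), 0.064 (KO18), 0 (KO19) and 0.253 CPM (KO20), from 1, 2, 0 and 6 reads. The highest Control library stood 8.32-fold above the lowest, so Synpr was not strongly expressed in every Control kidney, and the groups still stood 5.39-fold apart at their nearest values. The means were 5.8 ± 4.14 and 0.0925 ± 0.111 CPM, which leaves 1.6% of the Control level, with a 95% exact interval on the pooled reads of 0.669% to 2.81% that covers counting error only. In KO19, with 0 reads, a limit of 3 reads allows up to 0.0909 CPM, or 1.57% of the Control mean. The log2 fold change of -5.98 (SE 0.90) rested on few cKO reads: it was -7.08 without KO20, -5.43 without C13 and -7.70 without KO16, KO20 and C11. A stretch of 121 bases of its transcripts also matched Sox1ot, so reads from that stretch are uncertain.

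**Figure D1:**
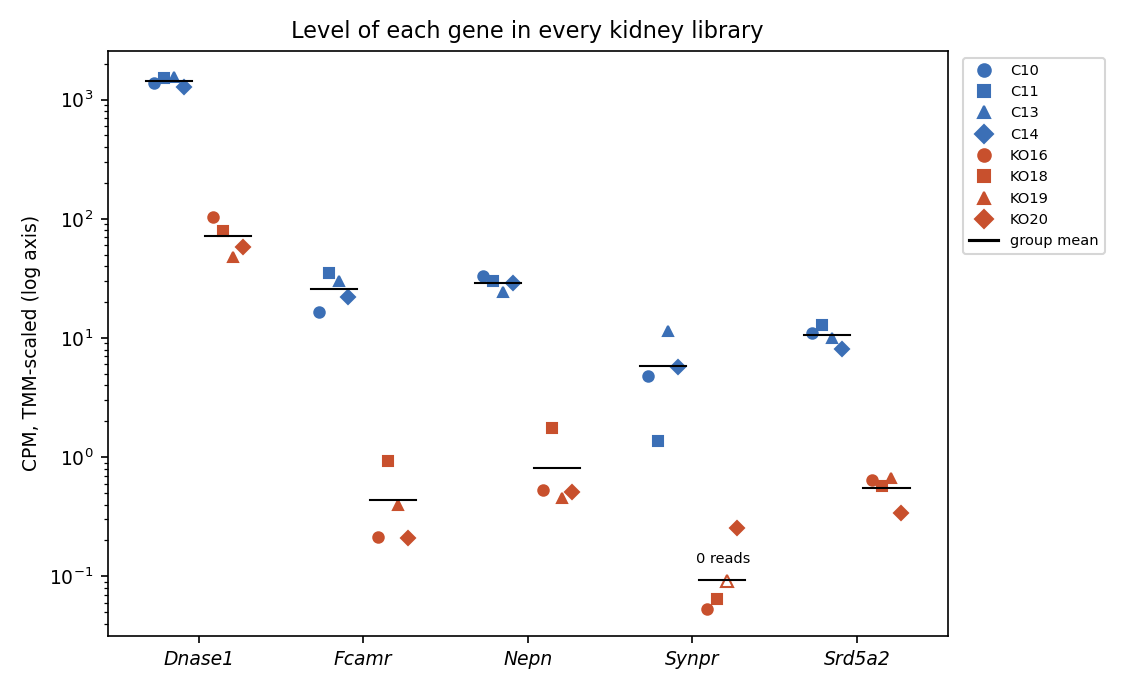
Level of the 5 genes in each library, in CPM scaled by trimmed mean of M values (TMM) on a log axis. Points are libraries, bars are group means of 4, and the open triangle is KO19, with 0 Synpr reads, drawn at the limit of 3 reads. The 4 Control libraries lie above the 4 cKO libraries for each gene, and Synpr has the widest Control spread (1.36 to 11.3 CPM).

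For all 5 genes every Control library exceeded every cKO library. The choice of the genes fixed this, and 11.6% of all tested genes showed the same, so nothing is read from it. Per length, the Control levels were in the order Dnase1 (964 ± 83.8 RPKM), Nepn (15.8 ± 1.96), Fcamr (14.9 ± 4.67), Srd5a2 (6.54 ± 1.24) and Synpr (2.28 ± 1.63 RPKM). The libraries of Nepn (13.2 to 17.9 RPKM) and of Fcamr (9.55 to 20 RPKM) overlapped, while the other neighbours in that order did not. Among the 9232 genes with a Control mean of at least 10 CPM, the median level left in cKO kidneys was 91.9%. Dnase1, Fcamr, Nepn and Srd5a2 were in this range, and the limit was set at the largest share left among them, 5.28% for Srd5a2. At or below that limit lay 22 of the 9232 genes (0.238%). These 4 are among the 22 because of how the limit was set, so their place there is no result. Ctxn3, at 5.32%, was the first gene just outside.

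The level left also differed from mouse to mouse, and not in the same order for each gene. Dnase1 kept most in KO16 (7.23%) and least in KO19 (3.35%). Fcamr and Nepn both kept most in KO18 (3.57% and 6.03%). Synpr kept most in KO20 (4.36%), and Srd5a2 kept most in KO19 (6.35%) and least in KO20 (3.22%). KO18 also had the most Xpr1 left (25.4% of the Control mean) and KO16 the least (5.5%), and the libraries with the most Xpr1, KO18 and KO19, also had the most Fcamr, while Dnase1 was highest in KO16. KO16 and KO20 leaned to short transcripts (2.04 and 0.97 in the short less long measure above), and KO18 and KO19 to long ones (-0.69 and -0.43). The part of this lean in the orders, that of Xpr1 included, was not tested. With 4 cKO libraries these orders are a description.

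**Figure D2:**
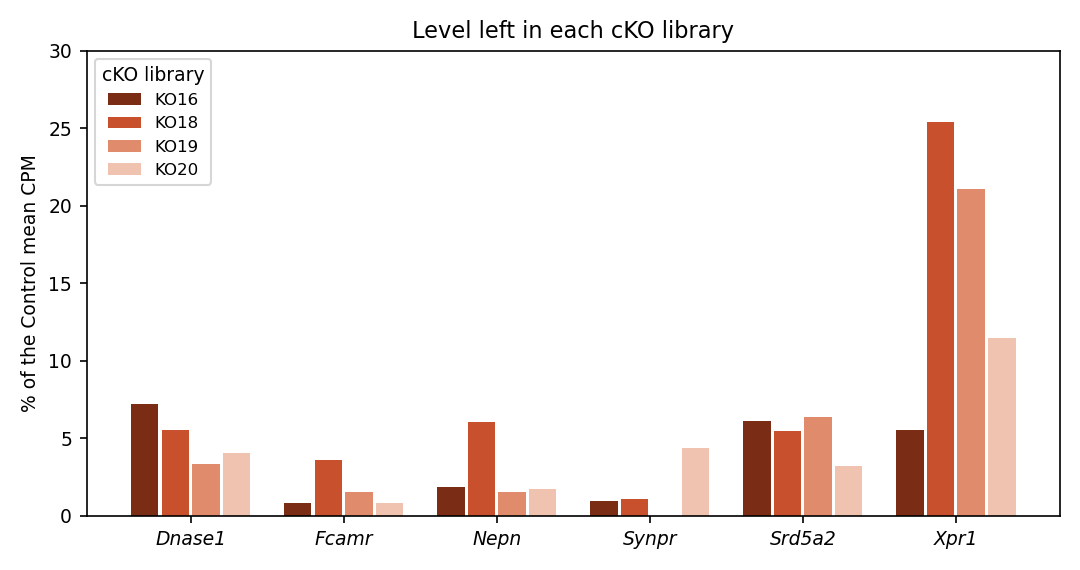
Level left in each cKO library as a percentage of the Control mean CPM, for the 5 genes and the deleted gene Xpr1. Bars are single libraries from KO16 (darkest) to KO20 (lightest). The 5 genes lie between 0% (Synpr in KO19) and 7.23% (Dnase1 in KO16), and Xpr1 between 5.5% and 25.4%.

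In bulk kidney, fewer cells of a type and less RNA per cell cannot be told apart. Proximal tubule markers were mostly lower in the knockout kidneys: 5 of 5 of the first segment, 5 of 5 of the middle segment and 3 of 6 of the last segment passed the test. Of all tested genes, 6.61% were called lower and 7.5% higher. The 16 markers summed to 11222 to 19023 CPM in Control and to 1589 to 3851 CPM in cKO libraries. The median level left of these markers was 24.9%, from 1.66% for the anion transporter Slc22a8 to 84.9% for the glucose transporter Slc5a1. For 2 of the 16 it was at or below the 5.28% of Srd5a2. Macrophage markers moved the other way, with 4 of 5 higher, from a summed 76 to 97.8 CPM in Control to 155 to 391 CPM in cKO libraries, and all 5 had reads in both groups. Of the thick limb, distal convoluted tubule and intercalated cell markers, 14 in all, edgeR called 0, with 1 higher and 2 lower at an unadjusted p under 0.05, while DESeq2 called 1, limma-voom 0 and edgeR 7 without KO16, KO20 and C11. That last fit called 4689 of all 15881 tested genes higher and 4486 lower. Of 6 markers of collecting duct principal cells, the water channel gene Aqp2 was higher (113 ± 14.7 against 243 ± 53.9 CPM, log2 fold change 1.10, adjusted p = 0.0117 by edgeR) and Aqp3 lower (68.1 ± 21.7 against 33.3 ± 3.58 CPM, -1.03, 0.0231). The call of Aqp2 was lost without C13 (0.0527), and that of Aqp3 without C13 (0.0594), C14 (0.053), KO19 (0.0634) or KO20 (0.0901). The part of these cell types in the levels of the 5 genes was not tested.

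Of 11 other tested DNA-degrading enzymes, 1 was higher, 10 were not called and 0 were lower by edgeR (0 lower also at an unadjusted p under 0.05, by DESeq2 and by limma-voom, and 3 without KO16, KO20 and C11), with a median log2 fold change of 0.29 against 0.01 over all tested genes. Few calls among 11 genes are near the background of 14.1% called and 6.61% called lower, so these counts say nothing particular about the relatives of Dnase1. The fit without KO16, KO20 and C11 called 4486 of all 15881 tested genes lower. The gene called was Dnase2a, a lysosomal enzyme that digests the DNA of engulfed cells, with 11.8 to 16.4 CPM in Control libraries. In the cKO libraries Dnase2a held 65.4 (KO16), 21.8 (KO18), 25.1 (KO19) and 42.7 CPM (KO20), and edgeR gave 1.52 on the log2 scale (SE 0.36, adjusted p = 0.0218). Its call was lost without C11, C13, C14 or KO20 (adjusted p = 0.0516, 0.079, 0.0671 and 0.0641). The closest relatives had log2 fold changes of 0.68 for Dnase1l1 (adjusted p = 0.148), 0.66 for Dnase1l2 (0.203) and -0.26 for Dnase1l3 (0.691). Their Control means per length, 7.13 ± 0.662 RPKM for Dnase1l1 and 1.68 ± 0.21 RPKM for Dnase1l2, were far under that of Dnase1.

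The list around Fcamr, of receptors for antibodies and the immunoglobulins themselves, split both ways: 6 of 15 tested genes were higher, 4 lower and 5 not called, with a median of 1.09. The share called was 66.7%, against 14.1% of all tested genes, a difference that was not tested. Pigr, which carries IgA and IgM across epithelia and lies beside Fcamr on chromosome 1, fell from 144 (C10), 330 (C11), 195 (C13) and 159 CPM (C14) to 45.2 (KO16), 37.9 (KO18), 31.2 (KO19) and 35.2 CPM (KO20). The groups of Pigr did not overlap (log2 fold change -2.47, SE 0.30, adjusted p = 0.00126 by edgeR), and C11 was highest in Pigr as in Fcamr. The other genes that fell were Fcgr2b, the inhibitory IgG receptor (-1.33, adjusted p = 0.0021), the IgA heavy chain Igha (-1.25, 0.00921) and the neonatal IgG receptor Fcgrt (-0.90, 0.0245).

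The 6 genes of that list that rose are expressed mainly by blood and immune cells. Fcrls, an Fc receptor-like gene, rose by 3.73 on the log2 scale (adjusted p = 0.0062) and the B cell gene Fcrl1 by 2.68 (0.0051). The activating receptors Fcgr3 (2.07, 0.017) and Fcgr1 (1.66, 0.0145), their signalling chain Fcer1g (1.48, 0.0109) and the IgM heavy chain Ighm (1.80, 0.009) rose as well. Jchain, which joins IgA and IgM units, was not called (-0.44, adjusted p = 0.573). Fcmr, the receptor for IgM alone and a close relative of Fcamr, had too few reads to be tested. The edgeR calls of Fcgrt, Fcgr1 and Fcgr3 did not hold without some libraries: that of Fcgrt without C10, C13, C14, KO18, KO19 or KO20 (0.0507 to 0.124), and those of Fcgr1 and Fcgr3 without C13 (0.0557 and 0.0599), C14 (0.0517 and 0.051) or KO20 (0.0509 and 0.0543). The macrophage markers described above rose in the same libraries, and their part in these values was not tested.

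Nepn belongs to the small leucine-rich repeat proteins, and of 14 tested relatives 2 were higher, 1 lower and 11 not called (21.4% called, against 14.1% of all tested genes), with a median log2 fold change of 0.50. Decorin (Dcn), a collagen-binding proteoglycan made by fibroblasts, rose from 40.3 ± 8.58 to 110 ± 47.8 CPM (log2 fold change 1.45, SE 0.32, adjusted p = 0.0178 by edgeR), and without C13 its adjusted p was 0.071. Lrrc17 was higher (1.60, 0.0328) and Tsku, a secreted repeat protein, lower (-1.16, 0.0275). Leaving out single libraries ended the call of Lrrc17 (adjusted p = 0.0519 to 0.108 without KO16, KO20, C10, C11, C13 or C14) and that of Tsku (without C11, C13, C14 or KO20, 0.0585 to 0.077). Biglycan (Bgn) and lumican (Lum), matrix proteins like decorin, had log2 fold changes of 0.39 (0.416) and 1.53 (0.058), and Lum passed without KO19 (0.044). With all libraries Lum passed by DESeq2 (0.00988) and by edgeR with upper-quartile factors (0.0448) or library totals alone (0.0194). Without KO16, KO20 and C11 together edgeR called Bgn (0.000123) and Lum (0.0459). The fibroblast marker list, summing to 107 to 214 CPM in Control and 243 to 268 CPM in cKO libraries, had 1 of 5 genes called, the collagen gene Col3a1, and its part in these values was not tested. Markers of adjacent fat and muscle summed to 2.89 to 33.3 CPM in Control and 4.96 to 141 CPM in cKO libraries. The fat gene Ucp1 held 104 (KO16), 2.11 (KO18), 10.1 (KO19) and 74.3 CPM (KO20). Dcn held 118, 72.3, 74.4 and 174 CPM in the same order, and the part of adjacent tissue was not tested.

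Of 15 tested vesicle proteins related to synaptoporin, 13 were not called, 2 were lower and 0 higher by edgeR (1 higher at an unadjusted p under 0.05, 1 by DESeq2 and 0 by limma-voom), with a median of -0.03. The share called, 13.3%, was near the 14.1% of all tested genes, so the count says nothing particular about the family. Synaptophysin (Syp), the best known of the family, held 7.87 ± 0.313 CPM in Control and 7.72 ± 2.25 CPM in cKO kidneys. Sypl, the form found in many tissues, was lower (261 ± 33.2 against 145 ± 16.5 CPM, log2 fold change -0.85, adjusted p = 0.0193), but not without C10, C13, C14 or KO19 (0.0582 to 0.0713). Sypl2, a muscle form, had 52.3 ± 31.6 and 14.6 ± 9.25 CPM, with C11 at 99.3 CPM, and an adjusted p of 0.0493 that rose to 0.0619 to 0.127 without any single library except KO18.

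Among steroid enzymes and receptors, the other 5-alpha-reductases were not called lower. Srd5a1 held 51.4 (C10), 39.3 (C11), 43.6 (C13) and 48.5 CPM (C14) in Control kidneys and 104 (KO16), 43.1 (KO18), 46.6 (KO19) and 84 CPM (KO20) in cKO kidneys, with overlapping groups and no call (log2 fold change 0.60, SE 0.30, adjusted p = 0.246). Srd5a3 was not called either (-0.10, 0.828). Per length, Srd5a1 (17.3 ± 2.02 RPKM) and Srd5a3 (10.7 ± 1.06 RPKM) were above Srd5a2 (6.54 ± 1.24 RPKM) in Control kidneys already. Of the 24 other tested genes of the list, 8 were lower, 16 not called and 0 higher by edgeR (0 also at an unadjusted p under 0.05, by DESeq2 and by limma-voom, and 1 with library totals alone), and 20 of 24 had negative log2 fold changes (median -0.55). The share called lower was 33.3%, against 6.61% of all tested genes, a difference that was not tested.

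The 8 lower genes reduce or oxidise steroids. Akr1c14, which acts on the product of SRD5A2, fell from 623 ± 146 to 139 ± 32.9 CPM (log2 fold change -2.17, SE 0.27, adjusted p = 0.00144 by edgeR), and Hsd17b11 fell from 456 ± 76.6 to 187 ± 17.9 CPM (-1.29, 0.00402). The calls of these 2 held in all 16 refits. The other 6 were Akr1c18 (-1.81, 0.0188), Akr1c21 (-1.38, 0.0219), Hsd3b2 (-1.21, 0.0168), Hsd3b3 (-1.18, 0.0219), Akr1d1 (-1.14, 0.015) and Hsd17b7 (-0.98, 0.0397). Each of these 6 lost its call without C13 (0.0518 to 0.114) and without KO20 (0.0584 to 0.125). The calls of all but Akr1c18 were also lost without C14 (0.0518 to 0.0877), those of Akr1c21, Hsd3b2 and Hsd17b7 without C10 (0.0522 to 0.0746), those of Akr1c21, Hsd3b3 and Hsd17b7 without KO19 (0.0513 to 0.0564), and that of Hsd17b7 without C11 (0.0721). Members of the Akr1c and Hsd3b families share sequence, and reads with several alignments were not assigned to a gene, so their counts are uncertain.

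Genes known to be raised by androgens in the mouse kidney were lower with Srd5a2. Of 10, 9 were lower, 1 not called and 0 higher by edgeR (0 higher also at an unadjusted p under 0.05, by DESeq2 and by limma-voom), with a median log2 fold change of -2.59, and 8 to 10 were lower in each of 16 refits. The share called lower, 90%, was above the 6.61% of all tested genes, a difference that was not tested. Odc1, the first enzyme of polyamine synthesis, fell from 1894 ± 523 to 212 ± 50 CPM (-3.16, adjusted p = 0.000519), and the organic anion carrier Slco1a1 from 1128 ± 286 to 96.6 ± 27.1 CPM (-3.54, 0.000427). Cyp4a12a (-5.25, 0.000892), Cyp4b1 (-3.47, 0.000215), Cyp2j13 (-2.90, 0.000671) and Cyp2d9 (-2.28, 0.00192), all cytochromes, Acsm3 (-2.08, 0.0024), Timd2 (-1.84, 0.00545) and Gusb (-0.91, 0.0188) were the others. Gusb was not called without C13, C14 or KO20 (0.0774, 0.0638 and 0.105). Kap, the most abundant of the list, held 91253 (C10), 25570 (C11), 77829 (C13) and 80313 CPM (C14) against 46246 (KO16), 14905 (KO18), 13485 (KO19) and 23438 CPM (KO20), with overlapping groups and no call (-1.49, SE 0.52, adjusted p = 0.096). Kap passed by edgeR without C11 (0.0411), without KO16 (0.0239) and without KO16, KO20 and C11 together (1.88e-06). With all libraries it passed by DESeq2 (0.037). Many genes of this list are made by the proximal tubule, whose markers were lower as well, and their part in these values was not tested.

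Genes known to be higher in female than in male mouse kidney moved in both directions. Of this list 80% were called by edgeR, against 14.1% of all tested genes. Slc7a12 (2.93, adjusted p = 0.0203) and Abcc3 (1.38, 0.0321) rose, Cyp4a14 (-2.32, 0.0231) and Slc22a7 (-1.60, 0.0303) fell, and Prlr was not called (-1.08, 0.079), by edgeR. Prlr passed by DESeq2 (0.022) and by edgeR without KO16, KO20 and C11 together (0.0286). None of the 4 calls held in all refits without 1 library: Slc7a12 was lost without C14 (0.068), Abcc3 without C10, C13, C14 or KO19 (0.0648 to 0.0918), Cyp4a14 without C13, C14, KO19 or KO20 (0.0524 to 0.0662), and Slc22a7 without C10, C13, C14, KO18, KO19 or KO20 (0.0618 to 0.0873).

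**Figure D3:**
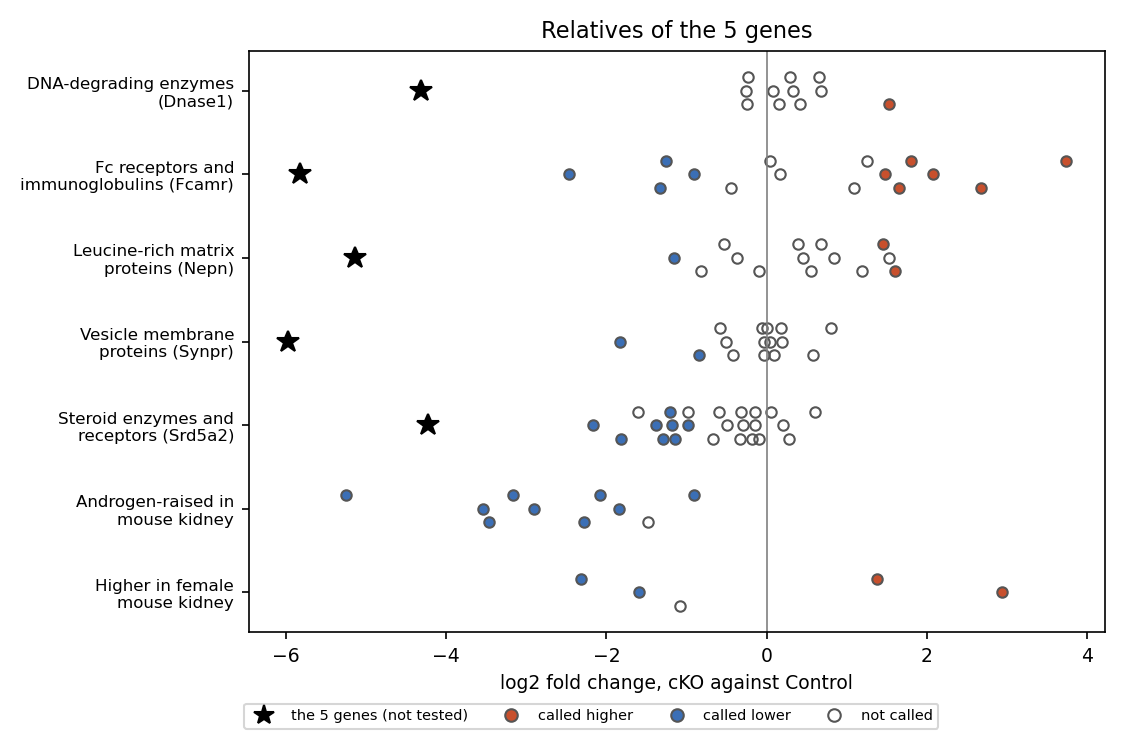
Log2 fold change, cKO against Control, of the 5 genes (stars, not tested) and of each tested gene in the 7 lists (circles, filled where called by edgeR at an adjusted p under 0.05). The stars of Dnase1, Fcamr, Nepn, Synpr and Srd5a2 lie at -4.23 or lower, and the medians of their 5 lists lie between -0.55 and 1.09.

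The 5 genes lie on 5 chromosomes, and their neighbours were compared next, since position did not enter the choice. Of the 30 nearest tested protein-coding genes, 3 on each side of each gene, 5 were lower, 25 not called and 0 higher by edgeR (2 higher at an unadjusted p under 0.05, 1 by DESeq2 and 0 by limma-voom). The share called lower, 16.7%, was above the 6.61% called lower among all tested genes, a difference that was not tested, and the median log2 fold change was -0.09. The number lower was 2 without C13, 3 without C10, C14, KO19 or KO20, and 12 without KO16, KO20 and C11 together. That last fit called 4486 of all 15881 tested genes lower, so its count cannot be set against the 6.61%. Beside Fcamr, Pigr starts 25.8 kb away on the same strand and was the neighbour with the largest fall (-2.47). Beside Nepn, both Nus1, a subunit of the enzyme that makes dolichol (-0.90, adjusted p = 0.0208), and Slc35f1 (-1.76, 0.00406) were lower, while Gopc, 6.85 kb away on the other side, was not called (-0.79, 0.245).

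Trap1 beside Dnase1 (-0.82, 0.021) and Galnt14 on the left side of Srd5a2 (-1.07, 0.0163) were the remaining calls, and the 6 neighbours of Synpr were not called. Trap1 overlaps Dnase1 by 54 exonic bases, where it is not known whether their reads were told apart. Pigr was also counted in the list around Fcamr. The count of lower neighbours is therefore not wholly separate from the 5 genes and their relatives. The nearest genes without a call were Slx4 for Dnase1 (-0.03, adjusted p = 0.985), AA986860 for Fcamr (0.44, 0.263), 3830406C13Rik and Thoc7 for Synpr (-0.40, 0.363 and -0.36, 0.576), and Xdh and Memo1 for Srd5a2 (-0.10, 0.904 and 0.39, 0.615). The edgeR calls of 3 neighbours depended on single libraries. Trap1 was not called without C10, C13, C14, KO19 or KO20 (0.0575 to 0.128), Nus1 without C10, C13, C14 or KO19 (0.0557 to 0.0791), and Galnt14 without C13 (0.0561) or KO20 (0.0548). The calls of Pigr and Slc35f1 held in all 16 refits.

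**Figure D4:**
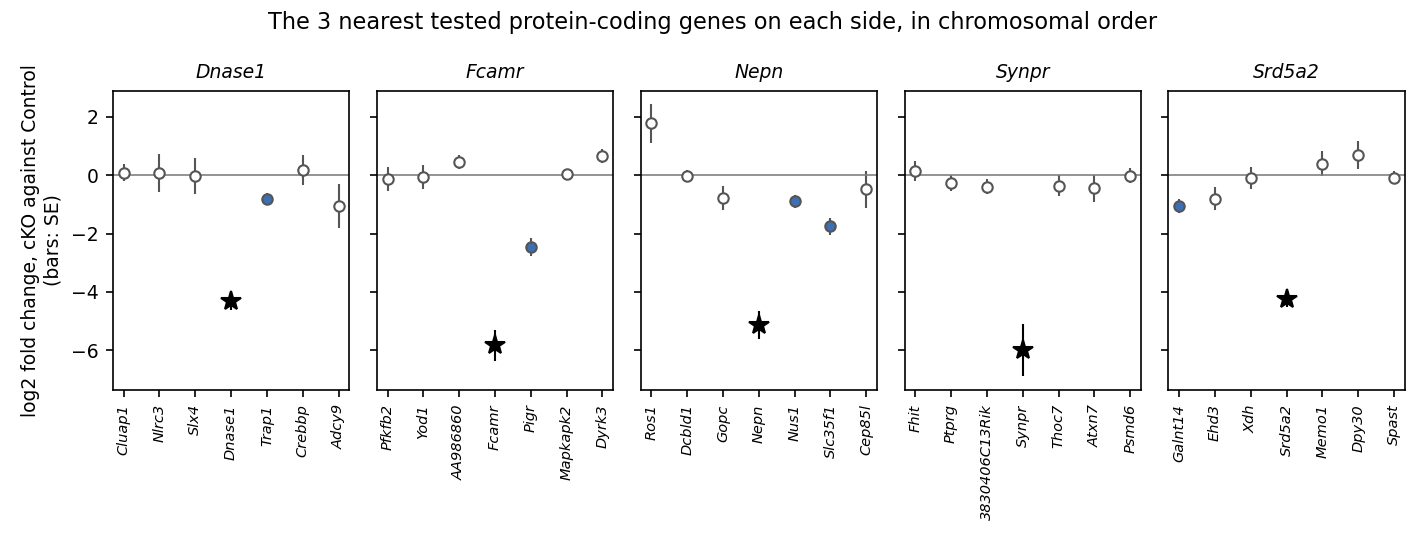
Log2 fold change, cKO against Control, of each of the 5 genes (star) and its 3 nearest tested protein-coding genes on each side, in chromosomal order (bars, SE; filled circles, called lower by edgeR). Of 30 neighbours 5 were called, and none lay as low as its star.

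The genes whose pattern over the 8 libraries came nearest to each of the 5 were found by the root mean square difference of centred log2 CPM among 12903 genes. The measure includes the difference between the groups that chose the genes, so it is a description. For Dnase1 these were Sectm1b (0.26), the glucose-6-phosphatase gene G6pc (0.29) and Nat8f1 (0.36). For Fcamr they were the anion transporter gene Slc22a8 (0.39), the phosphodiesterase gene Pde6a (0.49) and Nepn (0.53), and for Nepn they were Pde6a (0.35), Fam151a (0.40) and G6pc (0.49). Srd5a2 came nearest to Mogat2 (0.37), Dnase1 (0.38) and Cyp4b1 (0.39). Synpr had no gene as near, with Clec2h (0.79), the chemokine gene Ccl28 (0.88) and Inmt (0.91) first. Among the 5, Dnase1 and Srd5a2 were the most alike pair (0.38), then Fcamr and Nepn (0.53), and Fcamr and Synpr were the least alike (1.31).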

How the data were processed

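Whole-kidney mRNA libraries (TruSeq Stranded mRNA, 500 ng of total RNA, per the labels' protocols) of 4 Control and 4 cKO mice were analysed. The deposited values are raw read counts per Ensembl gene, per the file headers and their whole numbers. Per the submitters' processing notes, cutadapt 1.3, STAR 2.4.0g and HTSeq 0.6.1 were used with GRCm38. Annotation release, strand setting and filters: not given in the sources used here. Lines naming no gene held 39.7% to 56.2% of each file and were left out. GENCODE vM21 gave symbols, positions and lengths: 46005 of 46517 identifiers matched.

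Depth ran from 20366113 to 26155030 reads assigned to genes, and the spread between mice (common biological coefficient of variation 0.386) limited precision more than counting for well-expressed genes. Counting error was larger for Synpr (0 to 6 reads per cKO library) and for Fcamr in KO16 and KO20 (4 and 5 reads). The p-values measure the spread between these 8 libraries, and the labels give no litter or batch. edgeR 4.0.16 in R 4.3.3 was fitted to all 8 libraries (TMM scaling, quasi-likelihood F test) after filterByExpr with a count of at least 10 and a total of at least 15, with Benjamini-Hochberg adjustment over 15382 genes and a threshold of 0.05. Errors are SD over 4 libraries. RPKM used the length of the principal transcript, and log2 CPM used a prior count of 2.

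The 5 genes, the gene lists and the alternatives were chosen with earlier results of these data known. Named genes are the 5, Xpr1, every called gene of the 7 lists of relatives and androgen-related genes, close relatives whatever their values, the called and the nearest neighbours, and for each of the 5 the 3 genes of nearest pattern (mean of at least 1 CPM, no clone names or pseudogenes). Other genes named, such as Ctxn3, Slc5a1, Col3a1, Ucp1, Aqp2, Aqp3 and Jchain, were picked once their values had been seen. For 1 gene of the lists the result is not reported here. The 16 alternatives used upper-quartile or RLE factors, plain library totals, DESeq2 1.42.0, limma-voom (limma 3.58.1), no filter, a mean of at least 1 CPM, each library left out, and KO16, KO20 and C11 left out together.

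When counts of all 15382 tested genes were simulated for 4 Control and 4 cKO libraries, edgeR called 1% of 100 genes changed 2-fold, 53% of 100 changed 4-fold, and 3 of 15182 unchanged genes. In the data a far larger share of genes was called (14.1%), and the adjusted p depends on that share. The simulated percentages therefore do not give the share of real changes found here.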

Additional observations from a re-analysis of the deposited data

Results flagged for a closer look

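In 8 of 132 groups of 4 libraries examined, 1 library stood apart from the other 3 by more than Dixon's criterion allows, a rate that chance gives in about 1 in 20 groups. One of these was among the 10 groups of the 5 genes: Nepn in KO18, at 1.76 CPM against 0.454 to 0.531 CPM in the other cKO libraries. In C11 the level was high for Sypl2 (99.3 CPM, others 32.1 to 42.6), Bgn (182, others 85.9 to 95.9), Slx4 (53.3, others 14.5 to 20.1) and Xdh (38.1, others 12.9 to 15.5). In KO20 Akr1d1 was low (31.2 CPM, others 41.7 to 42.5) and 3830406C13Rik high (45.6, others 27.2 to 28), and in KO16 Timd2 was high (50.3, others 20.8 to 25.6).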

How the results depend on the processing

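The log2 fold changes of the 5 genes stayed between -7.70 and -3.89 in all 16 alternatives. Leaving out 1 library gave -4.54 to -4.12 for Dnase1, -6.51 to -5.57 for Fcamr, -5.87 to -4.92 for Nepn, -7.08 to -5.43 for Synpr and -4.35 to -3.99 for Srd5a2. Library totals alone raised the median of all genes to 0.34 and gave -4.02, -5.47, -4.77, -5.64 and -3.89 in that order, with 2374 genes higher and 548 lower (81.2% of calls higher, against 53.2% in the main result of 1154 and 1016). Upper-quartile factors raised the median to 0.14, with 63.9% of calls higher. DESeq2 called 1711 higher and 1462 lower. Without KO16, KO20 and C11 together, 4689 were higher and 4486 lower, and Synpr moved to -7.70. Leaving out 1 library gave 531 to 1363 higher and 566 to 1334 lower, with the fewest higher without C13 and the fewest lower without KO20, and counts also over 1.5 times smaller in a direction without C10 or C14.

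Leaving out 1 library gave 0 to 1 DNA-degrading enzymes higher and 0 lower, 4 to 7 Fc receptor genes higher and 3 to 4 lower, 0 to 3 leucine-rich repeat genes higher and 0 to 2 lower, 0 vesicle protein genes higher and 0 to 2 lower, 0 steroid genes higher and 2 to 10 lower, 8 to 10 androgen-raised genes lower, 0 to 2 female-high genes higher and 0 to 2 lower, and 0 to 1 neighbours higher and 2 to 5 lower. With library totals alone, 3 DNA-degrading enzymes were higher, 0 leucine-rich repeat genes lower, 1 vesicle protein gene higher and 0 lower, 1 steroid gene higher and 5 lower, and 1 neighbour higher and 2 lower. Without KO16, KO20 and C11, 3 DNA-degrading enzymes were higher and 3 lower, 6 leucine-rich repeat genes higher and 2 lower, 3 vesicle protein genes higher and 6 lower, 1 steroid gene higher and 15 lower, and 7 neighbours higher and 12 lower. These counts stand beside 4689 higher and 4486 lower among all 15881 genes tested in that fit. Voom left 1 leucine-rich repeat gene higher, upper-quartile factors and DESeq2 put 1 vesicle protein gene higher, DESeq2 put 1 neighbour higher, and a mean of at least 1 CPM left 1 vesicle protein gene lower.

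Of 42 named genes called, 19 were called in every alternative that tested them, 23 lost the call in some and 0 changed direction. Among the 19, Fcrl1 was tested in only 15 of the 16 alternatives. Uncalled genes changed sign. Library totals alone gave 0.0579 for Dnase1l3, 0.26 for Syp, 0.20 for Srd5a3, 0.36 for Slx4 and 0.22 for Xdh, and upper-quartile factors 0.12, 0.0446, 0.10 and 0.0485 for the last 4. RLE factors gave 0.00079 for Syp and voom 0.015 for Xdh. Leaving out 1 library gave -0.20 to 0.0825 for Syp (above 0 without KO18 or KO19), -0.27 to 0.0106 for Srd5a3 (KO18 or KO20), -0.39 to 0.56 for Slx4 (C11, KO16 or KO20) and -0.27 to 0.41 for Xdh (C11 or KO20). Srd5a1 was at -0.13, Memo1 at -0.69, Slx4 at 1.23 and Xdh at 0.65 with KO16, KO20 and C11 left out together. For alternatives that keep all libraries and genes, the cause was not tested. The 5 genes hold from 9 (Synpr) to 7340 (Dnase1) reads over the cKO libraries, so depth limits Synpr most. No paired analysis was possible because the labels do not give the litter of each mouse.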
